A study of Rattus norvegicus with 8 samples.

Results

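Smooth muscle cells of the pulmonary artery set the width of the lung's vessels. Their contractile apparatus is built on alpha smooth muscle actin, smooth muscle myosin heavy chain, tropomyosins, calponin, transgelin and caldesmon, and nitric oxide relaxes it through soluble guanylate cyclase and cGMP. When such cells leave the vessel wall and grow in culture they are known to shift between a contractile state and a synthetic one that makes matrix. The account here describes the transcripts of these cells before any treatment, from the 2 arrays of untreated cells among the 8 arrays of the study.

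The cells were primary cultures grown from explants of pulmonary arteries of adult Sprague-Dawley rats, whose endothelium and adventitia had been removed, per the labels' protocols. The other 6 arrays hold the same kind of cells after 1, 2 or 4 h with S-nitrosoglutathione (GSNO), a nitric oxide donor. The series design gives its concentration as 100 μmol/L and the sample protocol as 100 mmol/L. Each of the 4 groups has an array numbered 1 and an array numbered 2. Although the design mentions independent preparations, it does not tie them to these numbers, so the spread between arrays, and p-values that rest on it, may be technical. No effect of GSNO is described, and the GSNO arrays serve only to see whether a difference between the control arrays returns between other arrays of the same numbers.

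RNA had been hybridised to Affymetrix rat genome arrays, on which each transcript is read by 1 or more probe sets, and the deposited value is a fluorescence signal on a linear scale. All 8740 probe sets that are not controls of the array were ranked by their mean signal on the 2 control arrays. A probe set's signal depends on its probes as well as on the transcript, so a rank orders signals and not transcript abundance. Of the probe sets, 7006 carried 1 gene symbol, which gave 4736 named genes. For a gene with several probe sets the strongest is given unless another is named.

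The median signal was 130.6 on control array 1 and 123.8 on control array 2, and the 99th percentile was 14207 and 10436. The strongest signal was 27639 on array 1 and 16332 on array 2. The array numbers go with the run: arrays numbered 1 and 2 were scanned on different days, with different fluidics protocols and chip lots, per the experiment records. The CreX spike, a transcript added at hybridisation, read 11786 on array 1 and 4100 on array 2. Run, lot and cell preparation can therefore not be told apart. The 3' to 5' signal ratio was 0.968 on array 1 and 0.997 on array 2 for GAPDH, and 1.02 and 1.08 for beta-actin.

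The files used hold no detection calls, so a signal below the 40th percentile of its own array (82.3 on array 1 and 71.9 on array 2) was called low. All 19 of the array's features for bacterial and yeast transcripts not added as spikes lay below that level on both arrays. Their median was 16.6 on array 1 and 10.4 on array 2, and their highest signal was 71.9 and 54.7. Of the 15 features that read the antisense strand of the array's control genes, 8 were low on both arrays and the highest read 212.6 and 128.7. Signals up to that size were thus also given by features with no known target. Among the named genes, 1364 (28.8%) had every probe set low on both arrays and 518 (10.9%) had a probe set in the strongest 10%. These shares are the background for the counts that follow. The strongest 10% held 874 probe sets, the weakest with a mean signal of 1586, and the first outside it had 1584.

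The actins show how the muscle character of these cells appears in the data. Vertebrates have 6 closely related actins: Acta2 and Actg2 in smooth muscle, Acta1 in skeletal muscle, Actc1 in heart, and Actb and Actg1 in all cells. Acta2 read 23826 on array 1 and 12757 on array 2, rank 13 of all probe sets. Its other probe sets read 14230 and 12496 on array 1, against 9531 and 8853 on array 2. Actb read 20579 and 10371 and Actg1 read 16762 and 13127, also among the 30 strongest genes. Actc1 was low, at 21.9 and 16.4. Acta1 read 655.1 and 140.2, and Actg2 read 1098 and 74.4, so both were well above the 40th percentile on array 1 and closer to it on array 2. Because actin messages are alike in sequence, signal may cross between these probe sets, which was not tested.

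The promoters of these genes are shown because several actin genes are known targets of serum response factor, which binds the CArG box. The 250 bases before the RefSeq start site were read from build GRCr8, all on the minus strand, for 4 actins of unlike signal: Acta2 (chr1:241172504-241172753) and Actg1 (chr10:106120952-106121201), both strong here, Acta1 (chr19:68784195-68784444), and Actc1 (chr3:121271828-121272077), low here. Capitals mark CArG boxes, found on both strands with 1 G or C allowed in the AT-rich centre.
Acta2: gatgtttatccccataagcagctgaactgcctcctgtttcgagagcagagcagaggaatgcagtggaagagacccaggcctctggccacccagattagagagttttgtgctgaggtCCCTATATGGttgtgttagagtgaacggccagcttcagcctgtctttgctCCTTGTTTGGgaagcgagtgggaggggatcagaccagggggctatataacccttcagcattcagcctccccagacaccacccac
Actg1: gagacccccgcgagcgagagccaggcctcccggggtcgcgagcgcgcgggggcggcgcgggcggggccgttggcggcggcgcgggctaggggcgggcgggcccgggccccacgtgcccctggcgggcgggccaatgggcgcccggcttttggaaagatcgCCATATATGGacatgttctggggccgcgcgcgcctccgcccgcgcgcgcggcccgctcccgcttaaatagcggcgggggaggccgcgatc
Acta1: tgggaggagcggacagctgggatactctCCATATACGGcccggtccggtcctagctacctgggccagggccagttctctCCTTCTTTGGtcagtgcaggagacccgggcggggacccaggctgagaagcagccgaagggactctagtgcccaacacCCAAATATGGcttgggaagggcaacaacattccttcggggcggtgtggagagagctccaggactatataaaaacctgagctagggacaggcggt
Actc1: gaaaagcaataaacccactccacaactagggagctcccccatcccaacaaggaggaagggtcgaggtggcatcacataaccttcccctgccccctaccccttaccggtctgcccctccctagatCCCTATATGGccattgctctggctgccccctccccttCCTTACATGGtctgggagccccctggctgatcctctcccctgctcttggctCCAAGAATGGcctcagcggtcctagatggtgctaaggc

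Acta2 has 2 such boxes, the nearer ending 75 bases before the start, Actg1 has 1, and Acta1 and Actc1 have 3 each. Actc1, low on both arrays, thus has as many boxes in this stretch as Acta1 and more than Acta2. At least 1 box lay in 2703 of all 33469 promoters of this length (8.08%), and a box with no G or C in its centre in 501 (1.5%). Of the contractile genes described next, 1 of 21 with a promoter in the table had a box, which was Acta2. Among cardiac and skeletal muscle markers it was 8 of 30. A match of letters does not show that a factor binds there, and none shows only that the letters are not in this window.

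Contractile genes gave strong signals in the untreated cells. Of 34 genes on the list, 25 were named on the array, and 13 of these (52%) lay in the strongest 10%, against 10.9% of all named genes. The 13 include Vim, the vimentin of mesenchymal cells, and Tln1, which links integrins to actin. The list was chosen with earlier results of these data known, so the share describes this list only. The median signal of the 25 was 1604, against 182.9 over all named genes. Only 1, Des, was low on both arrays.

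Genes of the thin filament were among the strongest of the list. Tagln, which encodes the actin-binding protein transgelin, read 17560 on array 1 and 11841 on array 2. Tpm1 read 14901 and 9654, and Tpm2 read 8713 and 5002; both encode tropomyosins, which lie along the actin filament. Cald1, the actin- and myosin-binding caldesmon, read 5192 and 4052. All 4 had the higher signal on array 1. Cnn1, a calponin that marks smooth muscle, read 2731 on array 1 and 2732 on array 2. Its log2 difference between the arrays was 0.00, where the median size over all probe sets above the low level was 0.34. This holds for the control pair alone, since Cnn1 differed between the GSNO arrays by number, as given below.

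Myosin genes were present too. Myl9, the regulatory light chain of smooth muscle myosin, read 13493 and 11809. Myh11, the smooth muscle heavy chain, was read by 3 probe sets with unlike signals: 3199, 1759 and 122.8 on array 1, against 5037, 1598 and 549.0 on array 2. Myl6, a light chain shared with non-muscle myosin, read 1352 and 1088. The signals for Myh11 went both ways between the arrays, depending on the probe set.

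LIM-domain and adhesion genes divided into ones that were steady between the control arrays and ones that were not. Csrp1, a LIM protein of smooth muscle, read 5202 and 5238, while its relative Csrp2 read 2590 on array 1 and 335.5 on array 2. Nexn, an actin filament protein, read 1574 and 1633. Tln1, which links integrins to actin, read 2835 and 2107, and the collagen-binding integrin gene Itga1 read 1826 and 2964. Csrp2 stood apart from this group in the size of its gap.

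Regulators of contraction lay in the middle of the range. Rhoa, the GTPase that sensitises the filaments to calcium, read 1316 and 1349. Pln, the phospholamban that restrains the calcium pump, read 1560 and 705.5. Ppp1r12a, the targeting subunit of myosin phosphatase, read 493.5 and 498.8. Rock2, a kinase that acts on that subunit, read 515.8 and 918.9, and its relative Rock1 read 44.8 and 159.5, low on array 1 only. Sorbs2, Itga8 and Speg lay between 233.4 and 641.0 on both arrays. Des, which encodes the muscle intermediate filament desmin, read 24.6 and 23.0, near the median of the bacterial and yeast features. Vim, the intermediate filament vimentin of mesenchymal cells, read 19244 and 10760.

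**Figure D1:**
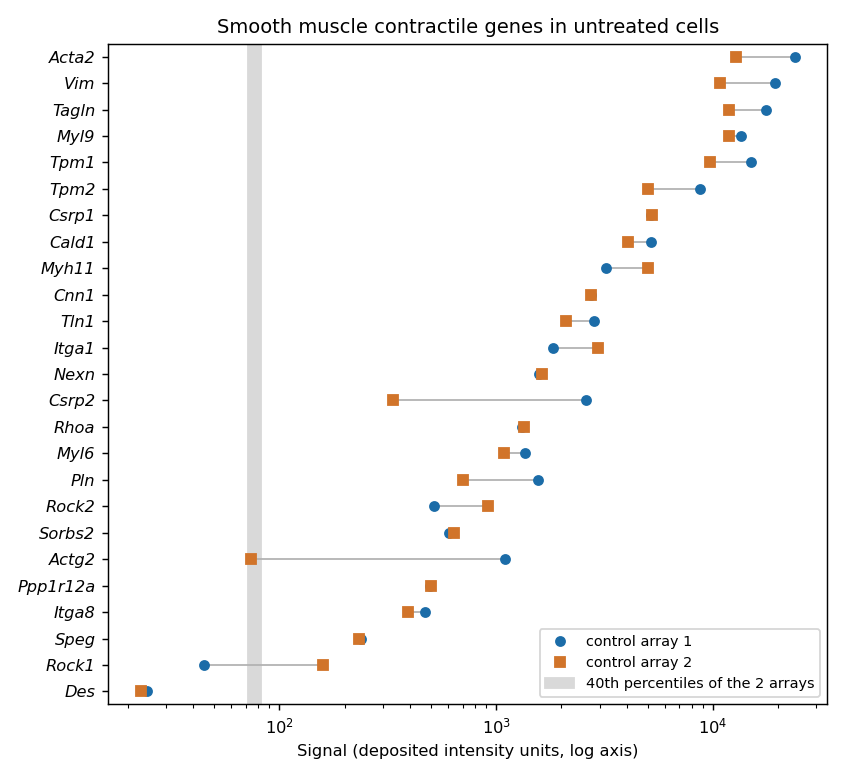
Signal of the 25 smooth muscle contractile genes on the array, on a logarithmic axis in deposited intensity units, with a circle for control array 1, a square for control array 2 and a grey band for the 40th percentiles of the 2 arrays. Acta2 is at the top and Des at the bottom; Csrp2 (2590 and 335.5) and Actg2 (1098 and 74.4) have the widest gaps.

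Of the markers set down with these cells, Acta2, Cald1 and S100a4 were all strong. S100a4, a calcium-binding protein found in fibroblasts and in synthetic smooth muscle, read 7408 on array 1 and 7638 on array 2. Of the 7 smooth muscle markers set for this check, Acta2, Cald1, Tagln, Cnn1 and Myh11 lay in the strongest 10%, Des was low and Smtn had no probe set with its symbol alone.

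Regulators of the muscle programme were strong about as often as other genes. Of 15 named on the array, 2 (13.3%) were in the strongest 10%, near the background of 10.9%. These were Crip2, a LIM protein of the vessel wall, at 2605 and 4477, and Gata6, a transcription factor of vascular smooth muscle, at 1996 and 2664. Fhl2, a LIM cofactor of serum response factor, read 137.9 on array 1 and 1781 on array 2. Mef2d read 353.1 and 375.4. The skeletal muscle determination factors Myod1 (23.3 and 50.8) and Myog (27.1 and 13.2) were low on both arrays.

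The general cytoskeleton was strong as well. Of 17 genes, 11 lay in the strongest 10% and 2, Tuba4a and Map1b, were low. Map1b, a microtubule protein of neurons, had the weakest signal at 15.9 and 20.8. Tmsb4x, which binds actin monomers, read 17304 and 13039. The tubulin gene Tubb5 read 12719 and 10288, and Pfn1, the profilin that feeds actin assembly, read 9383 and 7827.

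The 30 named genes with the strongest signals were mostly ribosomal. They included 17 cytosolic ribosomal proteins and 13 other genes, and Rpl3 led with 27639 on array 1 and 15890 on array 2. Eln, which encodes elastin, was the strongest gene that is not ribosomal, at 26402 and 15543. The others were Acta2, Actb, Actg1, Tagln, Vim and Tmsb4x of the cytoskeleton; Bgn, Fn1 and Fstl1 of the secreted proteins; the elongation factor Eef2; the G protein subunit Gnas; and COX1 of the mitochondrial genome. All 30 read higher on array 1, by 1.18 to 1.98 times. Of the 100 strongest probe sets, 98 did so. Of these 100, 52 carried 1 gene symbol, 28 carried several and 20 none here.

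**Figure D2:**
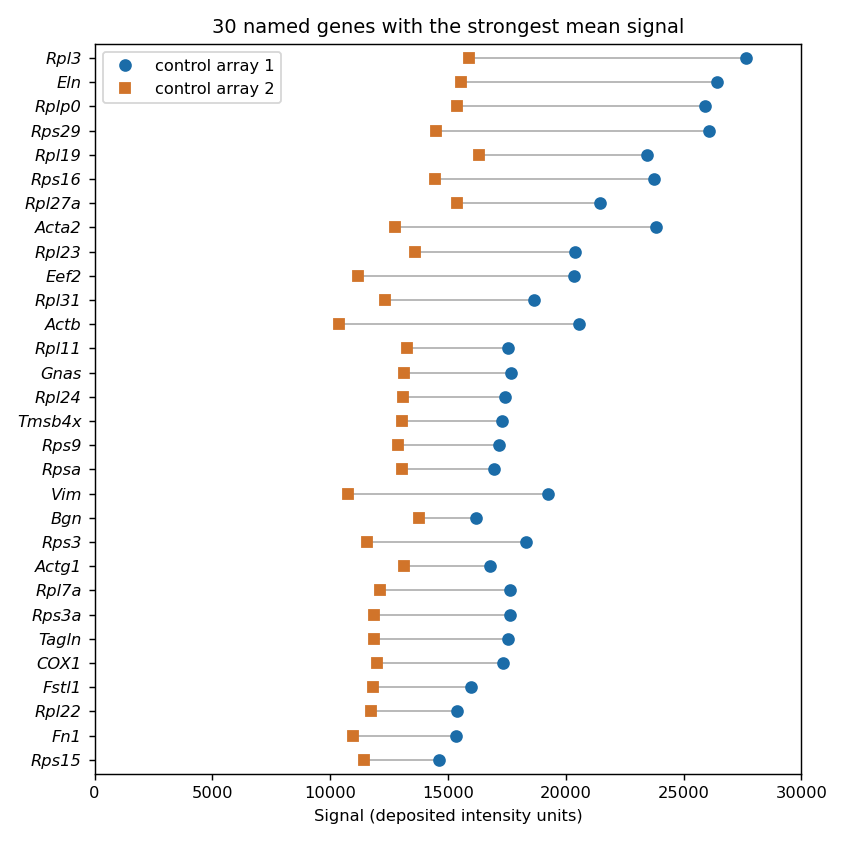
Signal of the 30 named genes with the strongest mean on the control arrays, in deposited intensity units on a linear axis from 0, with a circle for control array 1 and a square for control array 2. Every gene lies further right on array 1, where signals reach 27639, against 16332 on array 2.

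Matrix genes were strong. Of 45 structural matrix genes, 22 (48.9%) lay in the strongest 10% and 5 (11.1%) were low on both arrays, against 10.9% and 28.8% of all named genes. The elastic fibre was strong in several parts. Eln has been given above. Fbln5, a fibulin needed for elastic fibres, read 12540 and 9535. Lox, the enzyme that cross-links elastin and collagen, read 10529 and 8831. Ltbp2 and Ltbp1, microfibril-associated proteins of which the second holds latent TGF-beta, read 3014 and 1744 on array 1, against 1864 and 1593 on array 2.

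Fibrillar collagens known from the vessel wall were strong. Col1a1 read 11644 and 12243, and its partner chain Col1a2 read 13337 and 8507. Col3a1 read 7712 and 10990. Col5a2 read 4326 and 6553, and Col5a1 read 4134 and 2867. On these strongest probe sets, chains of one fibril type went opposite ways between the arrays. For type I this depended on the probe set. The other Col1a1 probe sets read 11116, 8907 and 7654 on array 1, against 8661, 8533 and 6794 on array 2. They were higher on array 1, as Col1a2 was. Col2a1, the collagen of cartilage, read 13.9 and 16.9, and the cartilage proteoglycan gene Acan read 17.4 and 13.3, both low. Col11a1, a further cartilage collagen, read 93.0 and 290.5 and was not low. The weakest of the list was Thbs4, a thrombospondin, at 14.4 and 7.02.

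Several genes that fold and modify collagen were in the strongest 10% as well. P4hb, a subunit of prolyl hydroxylase, read 7299 and 7497. Serpinh1, the collagen chaperone, read 7749 and 4707. Plod2, a lysyl hydroxylase, read 5990 and 4726, and P4ha1 read 2739 and 3717. The lysyl hydroxylase Plod1 lay outside the strongest 10%, at 1093 and 1245. Sdc1, Sdc2, Sdc4, Col8a1, Fmod and Lama5, also in the strongest 20%, lay between 476.3 and 3586.

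Glycoproteins of the matrix completed the picture. Bgn, the small proteoglycan biglycan, read 16186 and 13761. Fn1, fibronectin, read 15325 and 10983. Sparc, a collagen-binding matricellular protein, read 13632 and 10135. Mgp, an inhibitor of vessel calcification, read 9273 and 10241, and Spp1, osteopontin, read 10049 and 10228. The last 2 differed little between the arrays. Postn, periostin, read 7360 on array 1 and 3675 on array 2. Basement membrane was represented by Lamc1 at 1719 and 2240 and by Lamb2 at 687.3 and 1777, while the small proteoglycan Dcn read only 170.4 and 199.9.

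Matrix proteases and their inhibitors ranged from strong to low. Of 28 genes, 8 (28.6%) were in the strongest 10% and 7 (25%) were low on both arrays, the second share near the background. Mmp2, the gelatinase that mesenchymal cells secrete, read 2960 on array 1 and 7015 on array 2. Mmp14, the membrane protease that activates Mmp2, read 3232 and 2550, and Timp2, an inhibitor that takes part in that activation, read 5968 and 6683. These 3 partners were all strong. The 7 low genes were all matrix metalloproteinases: Mmp3, Mmp7, Mmp8, Mmp9, Mmp10, Mmp12 and Mmp13. Mmp9, the gelatinase of inflammatory cells, read 18.2 and 26.0, and Mmp8, the neutrophil collagenase, was weakest at 3.78 and 21.0. The lysosomal proteases Ctsb, Ctsd and Ctsl read 3033, 2661 and 1896 on array 1, against 4241, 2693 and 1998 on array 2. Timp1 and Timp3, further inhibitors, read 1826 and 809.7 on array 1, against 1536 and 878.7 on array 2. Mmp23 read 2517 and 3216, and Plat, the tissue plasminogen activator, read 1504 and 952.4.

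Few receptors for vasoactive ligands gave strong signals. Of 60 on the array, 3 (5%) were in the strongest 10% and 25 (41.7%) were low on both arrays. F2r, the thrombin receptor, was strongest at 4062 on array 1 and 5701 on array 2. Agtr1a, the angiotensin II receptor that contracts vessels, read 4022 and 1641. Npr3, which clears natriuretic peptides, read 2233 and 2961. Next came Tbxa2r, the thromboxane receptor, at 1346 and 753.5, and S1pr2, a sphingosine-1-phosphate receptor, at 745.6 and 603.9. Agtr1a, Tbxa2r and S1pr2 read higher on array 1, and F2r and Npr3 on array 2.

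Receptors known to relax vessels were measured too. Ptgir, the prostacyclin receptor, read 254.1 and 653.3. Npr1 and Npr2, the membrane guanylate cyclases that bind natriuretic peptides, read 562.6 and 334.2 on array 1, against 331.6 and 750.4 on array 2. Of the bradykinin receptors, Bdkrb1 read 307.3 and 210.4, and Bdkrb2 was weakest of the list at 8.33 and 4.18. Ptger4, a prostaglandin E2 receptor (17.2 and 7.91), was low too, as were Avpr1a, the vasopressin receptor that contracts vessels (21.3 and 11.7), and the histamine receptor gene Hrh1 (13.3 and 9.75). A low signal does not show that a receptor is absent, since weak transcripts and weak probe sets cannot be told apart.

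The nitric oxide pathway was strong at its receptor. Soluble guanylate cyclase is a pair of subunits that binds nitric oxide and makes cGMP. Its beta subunit gene Gucy1b1 read 3249 on array 1 and 2273 on array 2, and the alpha subunit gene Gucy1a1 read 1831 and 3633. Both were in the strongest 10%, Gucy1b1 with the higher signal on array 1 and Gucy1a1 on array 2. Ddah1, which breaks down an inhibitor of nitric oxide synthases, read 2047 and 1196. These 3 of 31 genes were in the strongest 10% (9.68%) and 10 (32.3%) were low, both near the background. Of the synthases, Nos1 read 53.6 and 66.9, Nos2 read 224.9 and 239.2, and the strongest of the Nos3 probe sets read 132.9 and 159.2. The inositol trisphosphate receptor genes Itpr1 (853.1 and 1202) and Itpr3 (652.9 and 776.2) were in the strongest 20%, while Itpr2 (14.5 and 11.1) was low. Pde5a, the cGMP-degrading enzyme of vascular muscle, read 165.7 and 94.9. Ass1, of arginine synthesis, was weakest at 8.70 and 4.84.

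Ion transport genes were led by pumps. Of 57, only the pumps Atp2a2 and Atp1b3 were in the strongest 10% and 21 (36.8%) were low. Atp2a2, the calcium pump of the reticulum, read 2424 and 2996, and Atp1b3, a subunit of the sodium pump, read 2320 and 1935. Kcnmb1, the smooth muscle subunit of the large calcium-activated potassium channel, read 1817 on array 1 and 749.3 on array 2. Its pore partner Kcnma1 read 65.6 and 55.2, low on both. Cacna1c, the L-type calcium channel of vessel muscle, read 799.6 and 787.2. Vdac1, the mitochondrial porin, read 1380 and 941.7, and Slc8a1, the sodium-calcium exchanger, read 605.0 and 788.3. Of potassium channels known from pulmonary artery, Kcna5 read 58.7 and 116.8, and Kcnk3 was low on both arrays. The neuronal sodium channel gene Scn1a had the weakest signal, 2.69 and 0.839.

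Most growth factor receptors gave middling signals. Of 48, 3 (6.25%) were in the strongest 10% and 7 (14.6%) were low on both arrays. The low count was 11 on array 2 alone, and 15 with the median over a gene's probe sets. Tnfrsf11b, the secreted decoy receptor osteoprotegerin, read 4974 and 3732. Ddr1, a collagen receptor kinase, read 2278 and 2647, and the neurotrophin receptor gene Ngfr read 2407 and 1760. Pdgfrb, the platelet-derived growth factor receptor of mural cells, read 1067 and 942.5, and Fgfr1 read 749.9 and 844.4. Vldlr, Tnfrsf1a, Acvr2b, Igf2r and Il4r, the others of the strongest 20%, lay between 496.0 and 1636. Tgfbr1 read 116.0 and 7.23. Epor was weakest at 21.2 and 26.6.

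Of secreted growth factors and cytokines, 2 of 58 were in the strongest 10% and 23 (39.7%) were low. Tgfb3 read 6770 on array 1 and 3037 on array 2. Igfbp2, a binding protein for insulin-like growth factors, read 4566 and 753.4. Edn1, the vasoconstrictor endothelin precursor best known from endothelium, read 1866 and 1056. The inflammatory genes Il6 (26.6 and 15.8), Tnf (21.4 and 10.2) and Cxcl2 (12.9 and 7.86) were low on both arrays. Ccl2 read 131.9 and 304.0.

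Housekeeping groups were strong as a whole. Of 37 ribosomal protein genes, 33 (89.2%) were in the strongest 10% and 0 were low. The 3 weakest, Rpl30, Rpl17 and Rpl5, read 54.9, 89.4 and 59.4 on array 1, against 227.2, 154.7 and 98.7 on array 2. Translation factors and chaperones had 18 of 24 in the strongest 10%, with Eef1a2, the form of muscle and neurons, low at 23.4 and 22.6. In energy metabolism it was 23 of 44. Cox4i1, of cytochrome oxidase, led these at 13313 and 10135, and Aldoc, the brain aldolase, was weakest at 73.4 and 95.7. Redox and iron genes had 14 of 33, led by Gstp1, a glutathione transferase, at 3816 and 7127. Mt3 was weakest there at 49.2 and 66.8.

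Cell cycle and early response genes were in the strongest 10% about as often as other genes. Of 28 cell cycle genes, 4 (14.3%) were, namely Cdk4, Ccnd3, Pcna and Ccnd1, and 3 (10.7%) were low. Cdk4, the partner kinase of D cyclins, read 4060 and 3030. Ccnd1 read 728.7 on array 1 and 2712 on array 2, and Ccnd3, another D cyclin, read 2431 and 1414. Top2a, a topoisomerase of dividing cells, read 787.7 and 340.9, and the mitotic kinase gene Cdk1 read 330.2 and 120.7. Of these 5, Ccnd1 was higher on array 2 and the others were higher on array 1. Elsewhere in the list the D cyclin gene Ccnd2 (769.5 and 2234) and Prim1 (328.8 and 551) were higher on array 2 too. Of all 28, 17 were higher on array 1. Cdkn1b was weakest at 6.63 and 23.7. Among 35 immediate early and stress genes, 4 (11.4%) were in the strongest 10% and 1, Fosl1 (24.6 and 28.7), was low. Btg1, an antiproliferative gene, read 9335 and 8474. Egr1 read 4446 and 2257, Id3 read 4396 and 4223, and Fos read 655.4 and 442.4.

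**Figure D3:**
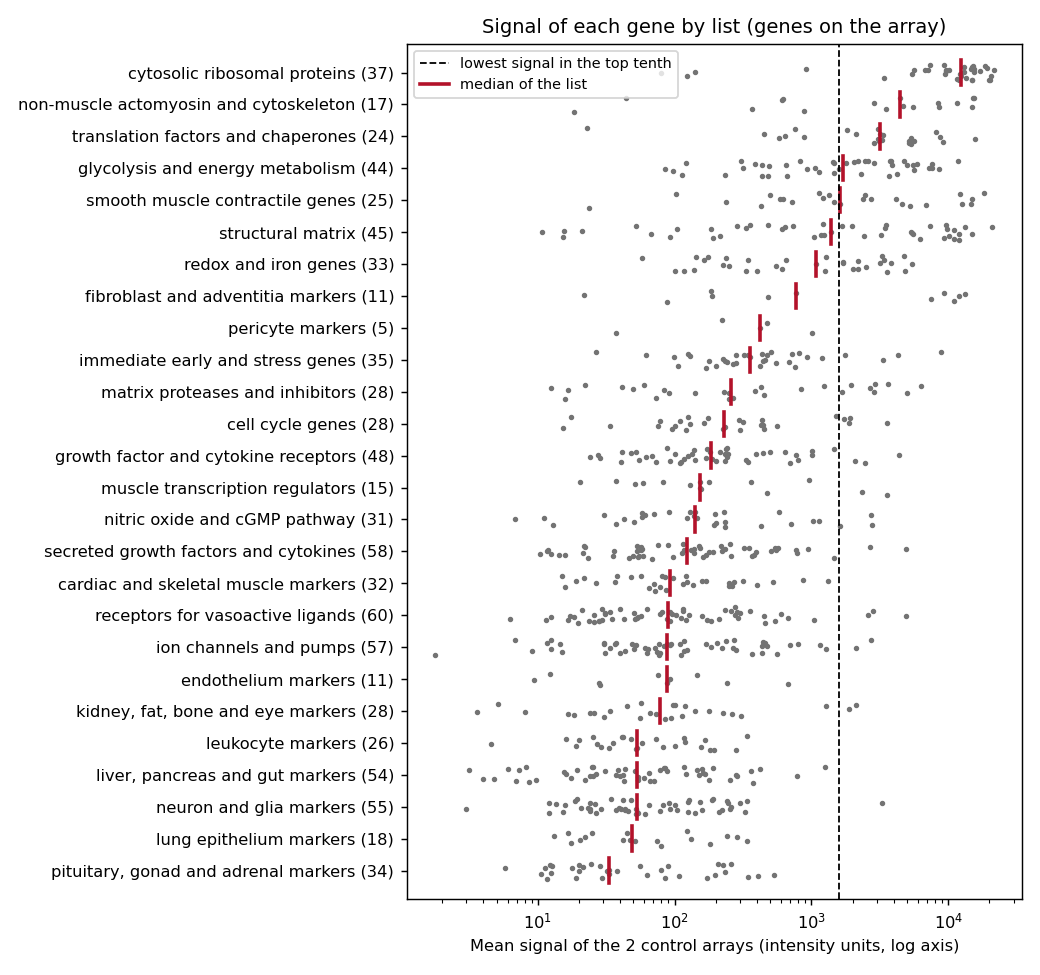
Mean signal of the 2 control arrays for each named gene, by list, on a logarithmic axis in intensity units; a red bar marks the median of the list and the dashed line the lowest signal of the strongest 10% (1586). Ribosomal proteins lie furthest right, and lists of leukocyte, lung epithelium, neuron, liver and pituitary genes furthest left.

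Markers of other cell types of the artery and lung were checked as far as the array named them. Of 11 endothelial markers on the array, 0 were in the strongest 10% and 4 were low, and their summed signal was 1674 on array 1 and 1296 on array 2. Vwf read 42.3 and 109.1, Pecam1 read 121.1 and 63.8, and Kdr was low at 38.6 and 18.3. The highest was Thbd, thrombomodulin, at 711.6 and 635.1, and the weakest was Sox17 at 12.5 and 6.09. Cdh5 and Tek had no probe set with their symbol alone, nor had Cd68, Cdh1 and Rgs5, set as markers of leukocytes, lung epithelium and pericytes. Leukocyte markers had 0 of 26 in the strongest 10% and 16 (61.5%) low, with a sum of 2225 and 2389. Ptprc, the pan-leukocyte CD45 gene, read 112.2 and 126.0, Cd74 read 84.5 and 148.8, and Itgam was low at 36.4 and 3.68. Cd14 was highest at 250.8 and 422.0, and Cd2 weakest at 6.69 and 2.45.

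Lung epithelium markers had 0 of 18 in the strongest 10% and 11 (61.1%) low, with a sum of 1920 and 1584. The surfactant genes Sftpa1 (32.7 and 11.5) and Sftpc (19.9 and 13.4) were low, and Scgb1a1, the weakest, read 15.8 and 10.6. Sftpb read 321.9 and 245.6 on one probe set and 36.9 and 14.6 on the other. Krt8 was highest at 341.4 and 339.4. Cardiac and skeletal markers had 0 of 32 in the strongest 10% and 10 low, with a sum of 7159 and 5250. The highest was Casq2, a calcium store protein of heart, at 1553 and 1107, and the weakest was Myl3 at 14.2 and 15.7. The heart genes Myh6 (87.7 and 69.4), Myh7 (139.1 and 90.1), Tnni3 (62.0 and 67.9) and Tnnt2 (192.9 and 147.0) and the muscle creatine kinase gene Ckm (107.9 and 132.7) read 192.9 or less on array 1 and 147.0 or less on array 2. Other members of the list read higher than these on array 1. Among them were Myh3 (828.4 and 897.1), Chrng (585.3 and 465.0), Myl7 (380.9 and 120.5) and Myl2 (283 and 240).

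Fibroblast markers included strong ones. Of 11 fibroblast and adventitia markers, 5 were in the strongest 10% and 1, Tcf21 (27.5 and 16.1), was low, with a sum of 56670 on array 1 and 52600 on array 2. The 5 were Fn1, Col1a1, Col1a2, Col3a1 and S100a4, of which the first 4 also stand in the matrix list. Of the others, Dcn read 170.4 and 199.9, Pdgfra read 178.8 and 197.9 and Thy1 read 420.2 and 1129. Lum read 393.2 and 568.9, and Ly6c read 52.8 and 123.4. All further probe sets of Dcn and Pdgfra were low on both arrays. Pericyte markers gave Pdgfrb as above, Abcc9 at 417.2 and 530.8, Anpep at 464 and 377, Cspg4 at 254.2 and 189.6 and Kcnj8, low at 56.8 and 17.7. Fewer cells of a type and less RNA per cell cannot be told apart in such bulk samples, and the part of these cell types in any difference between the arrays was not tested.

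Genes of distant organs served as a view of silence. Of 55 neuron and glia genes 31 (56.4%) were low, of 54 liver, pancreas and gut genes 30 (55.6%), of 34 pituitary, gonad and adrenal genes 21 (61.8%), and of 28 kidney, fat, bone and eye genes 12 (42.9%). The weakest in each were Tph1 (3.59 and 2.41), Cyp3a2 (3.64 and 2.63), Fabp4 (5.49 and 1.63) and, for the pituitary list, Pou1f1 (3.68 and 7.73). A few stood out. Pdyn, the prodynorphin gene of neurons, read 3545 on array 1 and 2979 on array 2. Lep, the fat hormone leptin, read 2098 and 1690 on the strongest of its 3 probe sets, while the weakest had a mean signal of 67.8. Aqp1, a water channel also known from vessels, read 883.2 and 3324, and Ins2, insulin, read 1078 and 1425. In the pituitary list the highest was Inha, an inhibin subunit, at 435.3 and 637.2. Whether the signals of Pdyn, Lep, Aqp1 and Ins2 come from the named transcripts was not tested.

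Different probe sets of one gene often disagreed, which limits every level given. Among 1565 genes with 2 or more probe sets, the strongest and the weakest differed by a median of 2.44-fold, and by more than 2-fold for 948 (60.6%). In 30 genes one probe set lay in the strongest 10% and another was low on both arrays. The widest range was that of Pam, a peptide-amidating enzyme, with mean signals between 27.1 and 9022 over 7 probe sets. Gpx1, Add1, Tpm3 and Lamp1 followed, Add1 with mean signals between 5.38 and 3862.

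The 2 control arrays agreed closely in order. Across the 8740 probe sets, which are not independent replicates and share both arrays' scaling, Pearson's r of log2 signal was 0.957 and Spearman's rho 0.942. Of the strongest 100 probe sets on each array 84 were shared, and of the strongest 10% 767 (87.8%). Differences were taken as log2 of array 1 minus log2 of array 2 after adding 20.9 signal units, which shrinks them for weak signals. Over the 4829 probe sets not low on either array, the SD of the difference was 0.56.

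The difference changed with signal. In the strongest of 10 equal groups of these probe sets by signal its median was 0.27, and in groups 5 to 9 it lay between -0.14 and -0.11. For the same strongest group the GSNO pairs gave medians of 0.23 at 1 h, 0.31 at 2 h and 0.38 at 4 h. The higher median of the strongest group on the array numbered 1 was thus found in every pair. Quantile normalization, which gives the arrays 1 common distribution, left 18 of 37 ribosomal genes higher on control array 1, against 34 of 37 as deposited, and gave their difference a median of -0.05, against 0.40 as deposited.

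Some genes differed far more than this. Over 2-fold differences were found in 138 of the 4829 probe sets (2.86%) higher on array 1 and 177 (3.67%) lower on array 1. With 2 arrays of a single group these have no test of their own. They were therefore looked up in a fit with limma on the 6 GSNO arrays, which compared arrays numbered 1 with arrays numbered 2 and allowed for exposure time. In that fit 362 of 5373 probe sets (6.74%) were higher and 555 (10.3%) lower on arrays numbered 1 at an adjusted p under 0.05. Without the 2 h arrays the fit called 82 in place of 917.

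Of the 138 higher on control array 1, 137 were tested and 63 (46.0%) were called higher there too, with 1 called lower. Of the 177 lower on control array 1, 176 were tested and 111 (63.1%) were called lower, with 0 called higher. The difference had the same sign in all 3 GSNO pairs for 91 of the 138 and 156 of the 177. It exceeded 2-fold in all 3 pairs for 23 and 37. The same counts over all tested probe sets are not given here. These counts of sign and size therefore have no background share to be read against. The GSNO arrays are other hybridisations, but they share scan day, fluidics protocol and perhaps preparation with the control array of the same number. All but the 1 h array numbered 1 also share the chip lot of that control array. The experiment named in the records was the same for all arrays numbered 2. Of the arrays numbered 1, the 2 h array shared it with the control array, while the 1 h and 4 h arrays had another.

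**Figure D4:**
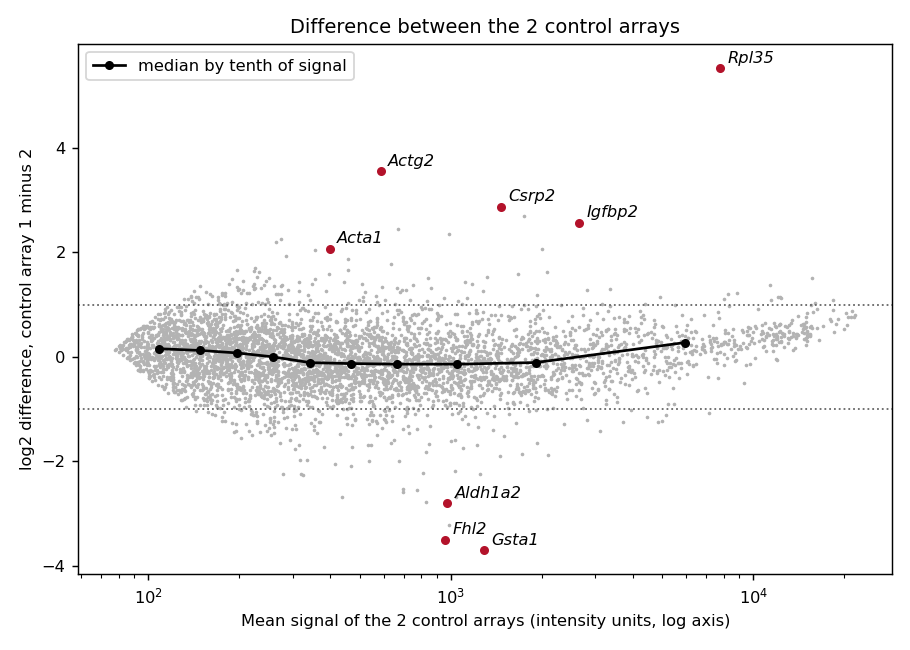
Log2 difference in signal, control array 1 minus control array 2, against their mean signal on a logarithmic axis in intensity units, for the 4829 probe sets not low on either array; dotted lines mark 2-fold and black points the median in each of 10 equal groups by signal. The median is above 0 in the strongest group (0.27) and named genes such as Actg2 (3.55) and Gsta1 (-3.70) lie far outside the cloud.

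Several of the recurring differences were in muscle genes. Actg2, the enteric smooth muscle actin, read 1098 on control array 1 and 74.4 on control array 2. On the GSNO arrays it read 747.3, 1066 and 814.6 at 1, 2 and 4 h on arrays numbered 1, against 15.8, 13.3 and 46.4 on arrays numbered 2. The groups did not overlap, and the fitted log2 difference was 4.34 ± 0.30 (SE), with a limma adjusted p of 0.00028. Acta1, the skeletal muscle actin, read 655.1 on control array 1 and 140.2 on control array 2. It read 579.6, 509.4 and 490.9 on GSNO arrays numbered 1, against 95.4, 69.9 and 57.6 on those numbered 2, a fitted difference of 2.54 ± 0.22 (SE; limma adjusted p = 0.00068).

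Csrp2, the LIM protein of smooth muscle, read 2590 on control array 1 and 335.5 on control array 2. On GSNO arrays it read 2410, 1904 and 1617 on those numbered 1, against 262.8, 229.0 and 177.3 on those numbered 2. All arrays numbered 1 were above all numbered 2, with a fitted log2 difference of 3.03 ± 0.15 (SE; limma adjusted p = 0.00014). Fhl2, the cofactor of serum response factor, went the other way. It read 137.9 on control array 1 and 1781 on control array 2. GSNO arrays numbered 1 gave 122.9, 45.4 and 241.8, against 1013, 601.1 and 964.5 on those numbered 2, a fitted difference of -2.66 ± 0.27 (SE; limma adjusted p = 0.0012). The calls of these 4 genes held in every alternative fit that was run on them, also without the 2 h arrays and after quantile normalization.

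The contractile genes as a list had 7 higher and 5 lower on arrays numbered 1 of 24 tested, against 176 higher and 331 lower of the 3199 named genes tested. Without the 2 h arrays it was 2 higher, Actg2 and Csrp2, and 0 lower, against 18 higher and 22 lower of 3249 named genes. Tpm2 was higher by 1.05 ± 0.16 (SE; limma adjusted p = 0.0075), and this was lost without the 2 h arrays (adjusted p = 0.091). Cnn1, level between the control arrays, was higher by 0.71 ± 0.15 (SE; limma adjusted p = 0.017). Its call was lost in 2 of 12 alternative fits, among them that without the 2 h arrays. Acta2 itself was higher by 0.49 ± 0.14 (SE; limma adjusted p = 0.047), and its direction turned with quantile normalization (-0.11, adjusted p = 0.50). On the strongest of its 3 probe sets, Myh11 was lower by a log2 difference of -0.55 ± 0.13 (SE; limma adjusted p = 0.024). Without the 2 h arrays the adjusted p was 0.20. Another Myh11 probe set read higher on control array 1, as given above. The muscle genes thus did not move as 1 block with the array number.

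Genes of matrix, growth and metabolism recurred beside them. All 3 probe sets of Igfbp2 were higher on control array 1: 4566, 3248 and 3053 on array 1, against 753.4, 758.1 and 450.5 on array 2. Their fitted differences on the GSNO arrays were 2.38, 1.95 and 2.60, the largest limma adjusted p being 0.00028. Postn was higher by 1.25 ± 0.13 (SE; limma adjusted p = 0.0016) and Ccnd1 lower, at -1.54 ± 0.15 (SE; limma adjusted p = 0.00099). Cirbp, a cold-inducible RNA-binding protein, read 1142 and 192.3 on the control arrays, and Serpine2, an inhibitor of thrombin, read 448.9 and 81.6. Both had fitted differences above 2, at 2.40 and 2.09 (limma adjusted p = 0.0018 and 0.0017).

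Among the widest differences the other way were those of Aldh1a2 and the alcohol dehydrogenase gene Adh1c. Aldh1a2, which makes retinoic acid, read 228.2 on control array 1 and 1722 on control array 2, with a fitted difference of -3.17 ± 0.25 (SE; limma adjusted p = 0.00049). Adh1c read 211.5 and 1336, with -2.76 ± 0.20 (SE; limma adjusted p = 0.00029). Dbp, a clock-controlled transcription factor, read 102.4 and 772.7, and Lgals3, a galectin, read 190.6 and 1200. Their fitted differences were -2.16 and -1.47 (limma adjusted p = 0.0089 and 0.0056), both lost without the 2 h arrays (adjusted p = 0.092 and 0.058).

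Gsta1, a glutathione transferase, had 3 probe sets with _f_ names, which the array's maker gives to probes shared by related genes. They read 165.7, 174.9 and 266.2 on control array 1, against 2410, 1803 and 1820 on control array 2. Their log2 differences were -3.13, -3.03 and -3.26 in the 1 h pair and -0.48, -0.79 and -1.03 in the 4 h pair, so the gap was not the same in all pairs. The limma adjusted p was 0.016, 0.014 and 0.012, and 0.092 to 0.14 without the 2 h arrays.

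Other gaps were smaller in the GSNO pairs than in the control pair. Rpl35 on one of its probe sets read 15203 on control array 1 and 308.7 on control array 2, the widest of all at 5.53. On the GSNO arrays the same probe set read between 9157 and 17257, and its neighbour for Rpl35 read 10106 and 8374 on the control arrays. A reading as low as 308.7 was thus found on control array 2 alone, and the fitted difference on the GSNO arrays was 0.70 ± 0.13 (SE; limma adjusted p = 0.011, and 0.15 without the 2 h arrays). Vegfa on one probe set read 467.4 and 81.6 on the control arrays, with a fitted difference of 0.24 ± 0.20 on the GSNO arrays (SE; limma adjusted p = 0.46). Klf10 read 97.2 and 542.9, with -0.35 ± 0.14 (SE; limma adjusted p = 0.14), and Medag read 196.4 and 1466, with -0.99 ± 0.32 (SE; limma adjusted p = 0.070) and a gap over 2-fold in the 1 h and 2 h pairs (-2.00 and -1.02). On the GSNO arrays Klf10 read between 1226 and 2106, and Medag between 436.5 and 6612. Their gaps there were thus read at other signal levels, which limits the comparison with the control pair. The weakest of the 5 Fn1 probe sets read 1664 and 309.0, with a fitted difference of 1.02 (limma adjusted p = 0.011, and 0.091 without the 2 h arrays).

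**Figure D5:**
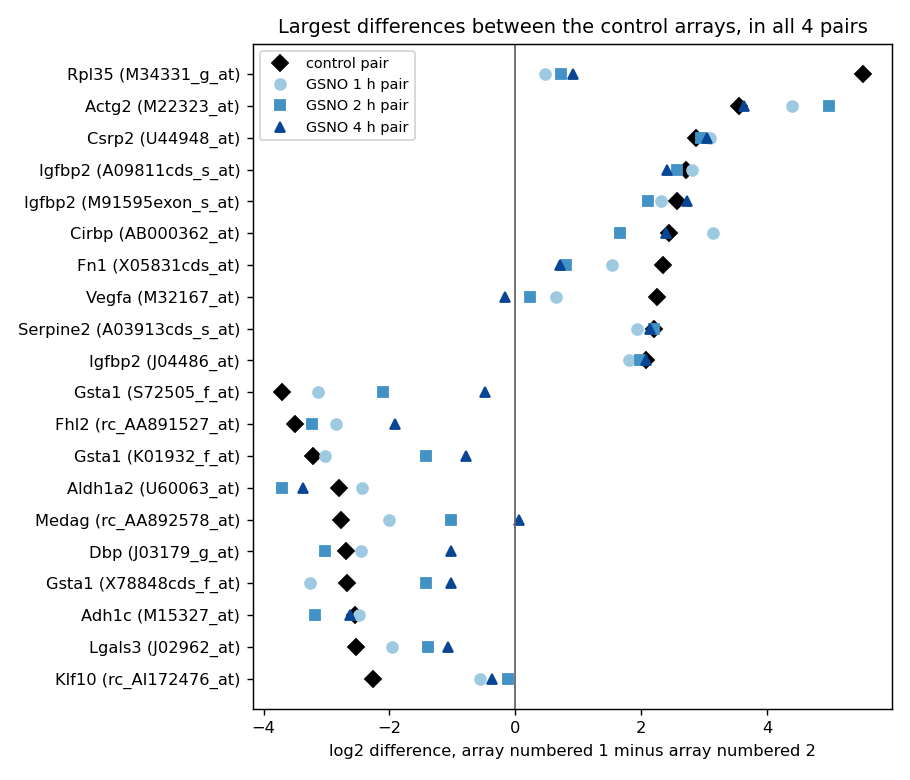
Log2 difference, array numbered 1 minus array numbered 2, for the 20 probe sets with 1 gene symbol that differed most between the control arrays, in the control pair (diamond) and in the GSNO pairs at 1 h (circle), 2 h (square) and 4 h (triangle). Actg2, Csrp2, Igfbp2, Serpine2, Aldh1a2 and Adh1c keep their place in all 4 pairs, while Rpl35, Vegfa and Klf10 lie closer to 0 in the GSNO pairs than in the control pair.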

How the data were processed

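The authors derived a signal for each probe set with Affymetrix GeneChip software, as the series design records. What they deposited is an intensity on a linear scale. Its trimmed mean, leaving out 2% at each end, was 501 on every array, so it was used as it stood. The experiment records held the run, fluidics and lot entries and no measurements. Precision is limited by the 2 arrays.

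Gene symbols came from the platform annotation; 6985 of the 7006 single-symbol probe sets matched the RefSeq gene table of GRCr8, and 0 symbols changed. Promoter sequences are RefSeq's. The log2 values were computed here, after an offset of 20.9 (the median over arrays of each array's 20th percentile), from the intensities the authors deposited. The only test was limma 3.58.1 in R 4.3.3 on the 6 GSNO arrays, with lmFit on array number and exposure group, eBayes with a trend, 2 residual degrees of freedom, two-sided p-values and Benjamini-Hochberg adjustment over 5373 probe sets that were not low, by the limit of the report, on 3 or more of these arrays. The script was tested on simulated data.

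Genes named are the 30 with the strongest signal, the highest and lowest of each list, the members in the strongest 20% of the contractile, matrix, protease, receptor, nitric oxide and channel lists, the cell type markers, the 10 widest control differences each way, and the 5 genes whose probe sets differ most; further members of the lists were named after their values were seen. The members and lists were chosen with earlier results of these data known. Alternatives were other offsets, filters, scalings and rank rules, and leaving out arrays. The fit without the 1 h array numbered 1, the only array of its chip lot, was chosen after seeing the data.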

Additional observations from a re-analysis of the deposited data

How the results depend on the processing

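The count of probe sets called between arrays numbered 1 and 2 of the GSNO groups was 917. It was 600 after quantile normalization, 514 with array number alone in the fit, 200 without the variance trend, and between 82 and 1105 when arrays were left out, the lowest without the 2 h arrays. With offsets of 1 and 100, no filter, median scaling or all 8 arrays it stayed within 1.5 times. Over 2-fold differences between the control arrays numbered 315, against 178 with an offset of 100, 901 without the filter on low signals, 1188 over 1.5-fold and 30 over 4-fold. Ribosomal genes called higher on GSNO arrays numbered 1 were 26 of 37 (176 of 3199 named genes), against 2 after quantile normalization (143 of 3199), 0 without the 2 h arrays (18 of 3249) and 0 without the variance trend (38 of 3199). Of 834 list entries, 169 were in the strongest 10% and 241 low; the low count was 82 with a 20th percentile limit and 414 with a 60th, while the other limits and rank rules tried stayed within 1.5 times. For single lists, 84 of 260 such counts moved by more than that, and 176 did not. Of the 30 strongest genes 29 stayed with a geometric mean, 26 without control array 1 and 28 without control array 2. No paired analysis was possible because a block on array number would remove the factor compared; the fit already set the arrays against each other within each exposure group, and the other results come from no test.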
